A study of Mus musculus with 8 samples.

Results

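A set of 10 integrin subunit genes was followed in nuclear RNA of cortical GABAergic neurons, the inhibitory neurons of the cortex, from juvenile mice that lacked thyroid hormone or had received it a day earlier. They comprise 7 alpha subunit genes (Itga3, Itga4, Itga6, Itga7, Itga8, Itga9 and Itgav) and 3 beta subunit genes (Itgb1, Itgb5 and Itgb8), and make up 10 of the 27 integrin subunit genes looked for among the 55341 gene symbols counted. The genes were taken by symbol from a given list, in which Itga7 and Itga8 were chosen by their opposite changes between the groups of these same libraries. For the 10 genes the values of that comparison are therefore given as a description, with errors but without support drawn from a test. How the other 8 symbols came onto the list was not stated, but the list was made with earlier results of these data known.

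Integrins are receptors for the extracellular matrix and for proteins on other cells, built from 1 alpha and 1 beta subunit, and the pair of subunits decides which ligand is bound. The subunits encoded by Itga3, Itga6 and Itga7 bind laminins, those of Itga8 and Itgav bind ligands that carry the RGD motif, and those of Itga4 and Itga9 bind ligands such as VCAM1 and tenascin. The product of Itgb1 can pair with each of these 7 alpha subunits, whereas those of Itgb5 and Itgb8 pair with the product of Itgav. In the brain, integrins are known for roles in the layering of the cortex, in synapses and in the contact of blood vessels with glia.

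Both groups carried a Cre-dependent transgene that labels the nuclei of GABAergic neurons with a fluorescent protein, and both were hypothyroid because their mothers had been given propylthiouracil (PTU), which blocks thyroid hormone synthesis, during pregnancy. For the PTU group (mice 9 to 12, n = 4) the labels name no further treatment. Mice 13 to 16 (n = 4) form the PTU+TH group, whose animals received an intraperitoneal injection of thyroid hormone (TH), with brains taken 24 h later. Mice with normal thyroid function were not analysed here, so the comparison shows what differs after TH was given to hypothyroid animals, not a return to a normal level. The Cre driver, the age in days, the sex, the litter and the TH dose are not given in the sources used here.

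The libraries held between 21762810 and 29084071 counts. The GABAergic genes Gad1 and Gad2 had means of 446 and 442 CPM (counts-per-million of the library) over the 8 libraries, and neither was called different between the groups. Counts of Y-linked genes were 0 in PTU+TH mice 15 and 16 and summed to between 7960 and 11548 in the other 6 libraries. The labels name no batch. Marker sums of other cell types differed from library to library within each group: the endothelial sum ran from 37.9 to 192 CPM in PTU and from 44.5 to 139 CPM in PTU+TH, and the astrocyte sum from 134 to 258 and from 139 to 391 CPM. Fewer cells of a type and less RNA per cell cannot be told apart in such bulk samples.

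The stretches upstream of Itga8 and of Npnt, which encodes nephronectin, a ligand of the integrin that holds the Itga8 product, are shown because these are the receptor and ligand genes of 1 pair that were both called and moved in opposite directions. Itga8 was chosen by its change in these same libraries, so its call is no support for the pair. Each is the 250 bases before a RefSeq start site in build GRCm38.p6, 5′ to 3′ on the gene's strand. The Itga8 stretch is chr2:12301945-12302194 and the Npnt stretch is chr3:132950292-132950541, both on the minus strand. Capitals mark the thyroid hormone receptor half-site AGGTCA, which was searched on both strands.
Itga8: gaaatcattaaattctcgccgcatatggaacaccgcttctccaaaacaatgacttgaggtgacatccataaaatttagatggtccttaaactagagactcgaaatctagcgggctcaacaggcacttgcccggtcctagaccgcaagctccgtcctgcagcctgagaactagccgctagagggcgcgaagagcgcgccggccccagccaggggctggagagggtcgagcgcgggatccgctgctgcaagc
Npnt: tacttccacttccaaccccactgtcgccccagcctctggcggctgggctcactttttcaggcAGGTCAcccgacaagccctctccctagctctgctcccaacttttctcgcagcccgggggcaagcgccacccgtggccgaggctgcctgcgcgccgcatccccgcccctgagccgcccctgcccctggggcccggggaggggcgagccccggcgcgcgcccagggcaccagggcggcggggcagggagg
The half-site was found once upstream of this Npnt start, which lies beside a further RefSeq start of the gene without a match, and was not found upstream of Itga8. It is a short motif, present in 16.3% of the 32851 RefSeq promoter windows of 300 bases. The promoter table held entries for 8 of the 10 members (Itga3, Itga4, Itga8, Itga9, Itgav, Itgb1, Itgb5 and Itgb8), and none of their 9 windows held the half-site. The arrangement of 2 half-sites in one direction spaced by 4 bases was in 5 of all windows (0.0152%). A match or its lack describes these letters only.

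Itga7 (chromosome 10, 128933818 to 128958282), the laminin-binding alpha subunit best known from skeletal muscle, was higher after TH. It stood at 7.80, 8.13, 7.47 and 9.23 CPM in PTU mice 9 to 12, and at 19.4, 18.3, 17.6 and 17.6 CPM in PTU+TH mice 13 to 16. The lowest PTU+TH library was well above the highest PTU library, and the 4 mice of each group lay close together. The means were 8.16 ± 0.764 and 18.2 ± 0.831 CPM (SD, n = 4 each), a log2 fold change of 1.16 (SE 0.13, 95% interval 0.88 to 1.43), or 2.23-fold. The gene rests on 151 to 216 reads per PTU library and 369 to 531 per PTU+TH library, and 99.6% of its body is free of other genes.

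Itga8 (chromosome 2, 12106632 to 12301922), whose product forms with that of Itgb1 a receptor for RGD ligands such as nephronectin, was lower after TH. The values were 45.4, 48.3, 54.3 and 59.3 CPM in PTU mice 9 to 12 and 24.5, 26.6, 24.7 and 25.8 CPM in PTU+TH mice 13 to 16. The groups were far apart, and the PTU+TH mice were more alike than the PTU mice. The means were 51.8 ± 6.22 and 25.4 ± 0.998 CPM (SD, n = 4 each), a log2 fold change of -1.03 (SE 0.10, 95% interval -1.25 to -0.80), or 2.04-fold lower. Reads numbered 1097 to 1356 per PTU library and 542 to 775 per PTU+TH library.

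Itga7 and Itga8 were the 2 of 10 members called at an adjusted p under 0.05 in edgeR's quasi-likelihood test, 1 in each direction. Over all 17355 genes tested 2.12% were called, 1.49% as higher and 0.634% as lower. Since both genes were chosen by this comparison, their count says nothing about the family. Among all genes tested, 232 had a change at least as large in size as that of Itga7 and 336 one at least as large as that of Itga8. All 10 members passed the filter on low counts.

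**Figure D1:**
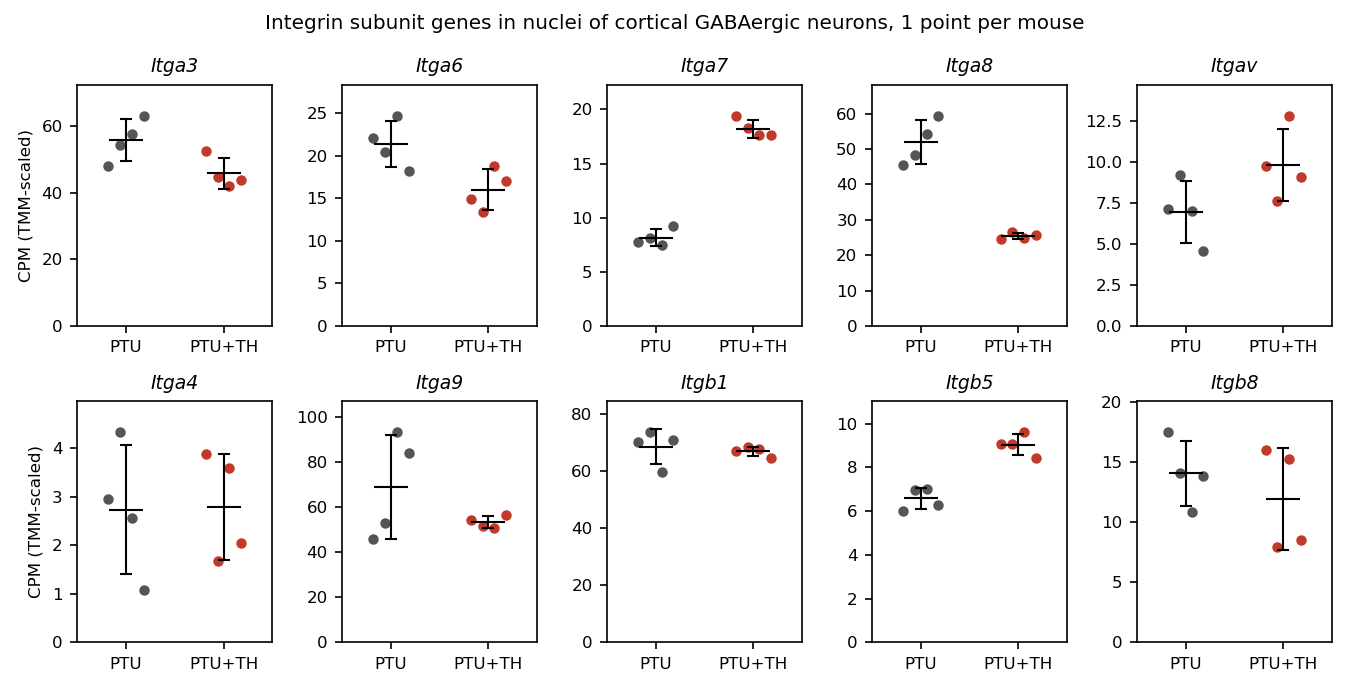
Level of the 10 integrin subunit genes in CPM (vertical axes from 0) in each mouse, with the mean (wide bar) and SD (error bar) of the 4 PTU (grey) and 4 PTU+TH (red) mice. Itga7, Itga8 and Itgb5 are the 3 genes whose groups do not overlap.

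Among the other laminin-binding alpha subunits, neither gene was called. Itga3, the alpha subunit of a laminin receptor widely found on epithelia and neurons, was at 48.1, 54.4, 57.7 and 63.1 CPM in PTU mice 9 to 12, against 52.7, 44.7, 42.0 and 43.9 CPM in PTU+TH mice 13 to 16 (log2 fold change -0.28, 95% interval -0.51 to -0.05). The groups overlapped because PTU+TH mouse 13 was above PTU mouse 9. Itga6, which pairs with Itgb1 or Itgb4 products, ranged from 18.2 to 24.7 CPM in PTU and from 13.4 to 18.8 CPM in PTU+TH (log2 fold change -0.42, 95% interval -0.72 to -0.12). The groups of Itga6 overlapped as well.

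Itgav encodes the alpha subunit of vitronectin and fibronectin receptors that can hold the products of Itgb5 and Itgb8. It ranged from 4.55 to 9.18 CPM in PTU and from 7.60 to 12.8 CPM in PTU+TH, with overlapping groups (log2 fold change 0.49, 95% interval 0.02 to 0.97). Only 73.2% of its body is free of other genes, the smallest share among the 10, and reads from the rest appear not to have been counted. Its partner gene Itgb5 measured 6.01, 6.96, 7.03 and 6.30 CPM in the PTU mice, while the PTU+TH mice had 9.07, 9.08, 9.59 and 8.42 CPM. All 4 PTU+TH mice were above all 4 PTU mice, but the gene was not called (log2 fold change 0.46, 95% interval 0.14 to 0.78, edgeR adjusted p = 0.158), and of the uncalled members it had the smallest adjusted p. Groups that do not overlap were found for 3 of the 10 members and for 8.71% of all genes tested.

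Itgb8, whose product forms with that of Itgav a receptor known for the release of active TGF-beta, varied within the groups. It was at 17.5, 14.1, 10.9 and 13.9 CPM in PTU mice 9 to 12 and at 16.0, 7.94, 15.3 and 8.57 CPM in PTU+TH mice 13 to 16. Within PTU+TH, mice 13 and 15 were high and mice 14 and 16 low. The astrocyte marker sum was also higher in mice 13 and 15, at 278 and 391 CPM, than in mice 14 and 16, at 139 and 206 CPM, although in PTU the mouse with the lowest sum, mouse 12 at 134 CPM, was not the lowest in Itgb8. The marker sums of the other non-GABAergic cell types, such as endothelium, were also higher in mice 13 and 15 than in mice 14 and 16. The part of astrocytes or of these other cell types in the Itgb8 values was not tested. The means of the groups, 14.1 ± 2.68 and 12.0 ± 4.30 CPM (SD, n = 4 each), differed by less than the SD of the PTU+TH group (log2 fold change -0.24, 95% interval -0.76 to 0.27).

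Itgb1, the common partner of the alpha subunits, had the steadiest level. The 4 PTU mice had 70.4, 73.6, 59.6 and 70.9 CPM, and the 4 PTU+TH mice had 67.2, 68.4, 67.7 and 64.5 CPM. The values of the groups lay among each other, and the 95% interval of the log2 fold change, -0.22 to 0.15 around -0.04, was the narrowest of the 10.

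Itga4 and Itga9 encode closely related alpha subunits that both pair with the Itgb1 product. Itga9 reached 45.8, 52.9, 93.1 and 83.8 CPM in PTU mice 9 to 12, against 54.3, 51.6, 50.9 and 56.7 CPM in PTU+TH mice 13 to 16 (log2 fold change -0.37, 95% interval -0.80 to 0.07). PTU mice 11 and 12 were high, whereas PTU mice 9 and 10 were at or just below the level of the PTU+TH group. The same 2 mice had the highest sums of SST class markers in the PTU group, 4019 and 3499 CPM against 2702 and 2684 CPM in mice 9 and 10, and of PV class markers, 3716 and 3269 against 2142 and 2255 CPM. The largest parts of these sums were single long genes. In PTU mice 9 to 12, Nxph1 of the SST list had 1083, 1185, 1992 and 1706 CPM. Kcnc2 of the PV list had 1497, 1670, 2836 and 2507 CPM. Grin3a, Satb1 and Elfn1 were also higher in mice 11 and 12. Sst, at 274, 230, 238 and 192 CPM, and Chodl, Calb1, Crhbp and Pdyn did not share this pattern, nor did the PV markers Tac1 and Pthlh. The part of the mix of GABAergic classes, or of gene length, in the Itga9 values was not tested. PTU+TH mouse 16, with class sums of 3629 and 3506 CPM, had Itga9 at 56.7 CPM.

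Itga4, known from its role in the adhesion of leukocytes to vessel walls, was the lowest member, at 2.95, 4.33, 2.57 and 1.09 CPM in PTU and 3.88, 1.68, 3.59 and 2.05 CPM in PTU+TH. The marker sums of endothelium, of astrocytes and of mural cells with fibroblasts had a like order. In PTU, Itga4 and the endothelial sum were both highest in mouse 10 and lowest in mouse 12, with sums of 192 and 37.9 CPM. In PTU+TH both were higher in mice 13 and 15, with sums of 105 and 139 CPM, than in mice 14 and 16, with 44.5 and 58.9 CPM. The part of vessel cells or of astrocytes in the Itga4 values was not tested in each mouse. With 25 to 115 reads per library, the 95% interval of the log2 fold change was wide, -0.82 to 0.86 around 0.02, and its sign changed between settings.

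**Figure D2:**
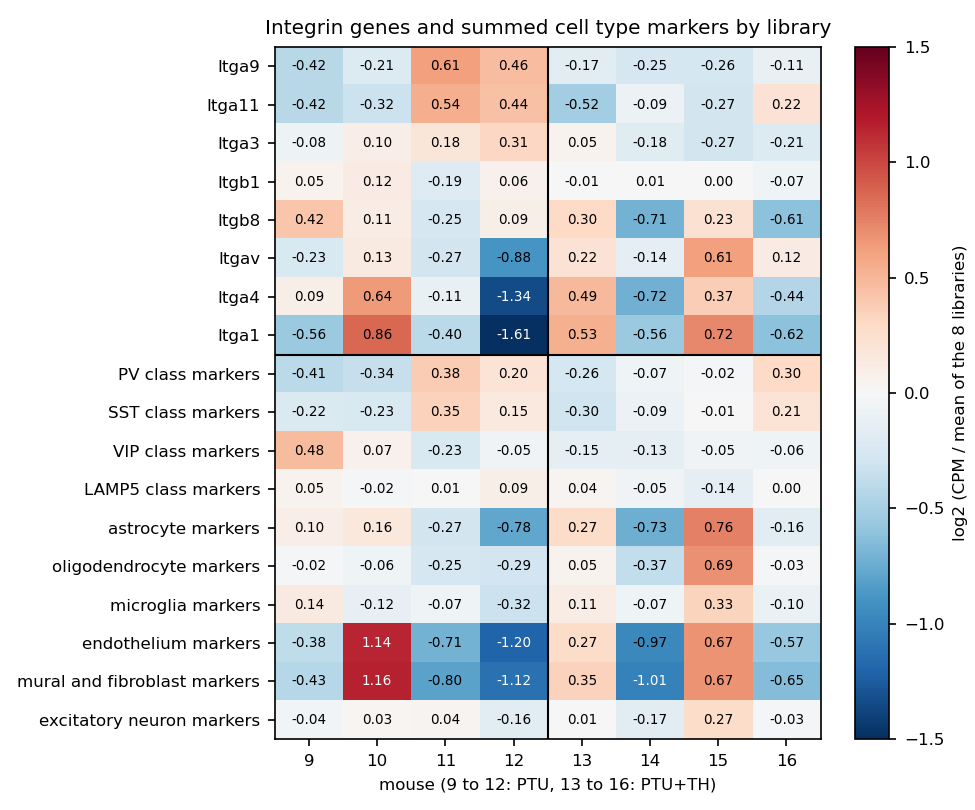
Log2 of the CPM over the mean of the 8 libraries for 8 integrin genes (above the line) and for summed cell type markers (below it), with 1 column per mouse. The genes were picked for display after their values were seen. Itga9 and Itga11 are highest in PTU mice 11 and 12, at 0.44 to 0.61, and Itga1 and the endothelial sum are both highest in PTU mouse 10, at 0.86 and 1.14.

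The mice were also compared within 2 sets by mouse number, a grouping that the labels do not call a batch. In the second set, PTU+TH mice 15 and 16 had no Y-linked counts and PTU mice 11 and 12 had them. There the TH difference cannot be told apart from the Y-linked one. Itga7 rose in mice 13 and 14 against 9 and 10 (log2 ratio of the means 1.24) and in mice 15 and 16 against 11 and 12 (1.08). For Itga8 the ratios were -0.87 and -1.17. Those of Itgb5 were alike, 0.48 and 0.43. In contrast, Itga9 gave 0.10 in the first set and -0.72 in the second, Itgav 0.09 and 0.93, and Itga3 -0.07 and -0.49. Itga6 and Itgb8 were further from 0 in the first set, with -0.59 and -0.40, than in the second, with -0.26 and -0.06. Itga4 changed sign, from -0.39 to 0.62, and Itgb1 was near 0 in both, at -0.09 and 0.02. With the set as a covariate, the log2 fold changes of Itga7 and Itga8 were 1.16 and -1.02. Without mice 15 and 16, the libraries with no Y-linked counts, they were 1.21 and -1.02, and with the endothelial sum as a covariate 1.16 and -1.01.

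The remaining 17 integrin subunit genes were used for comparison. Of the 12 that passed the filter, 0 were called by edgeR, by DESeq2 or by limma voom, where edgeR called 2.12% and DESeq2 3.88% of all genes. An unadjusted p under 0.05 was found for 0 of the 12 and for 12.8% of all genes tested. It was found for 6 of the 10 members, Itga7 and Itga8 with Itga3, Itga6, Itgav and Itgb5. That count includes Itga7 and Itga8, which were chosen by this comparison. All 10 members were listed with earlier results of these data known, so the count is a description and not a test against the 12. The median log2 fold change of these 12 genes was 0.03, that of the 10 members -0.14 and that of all genes tested -0.01. The 12 genes were Itga1, Itga2, Itga2b, Itga5, Itga10, Itga11, Itgad, Itgae, Itgb3, Itgb4, Itgb6 and Itgb7, with log2 fold changes from -0.65 (Itgad, 95% interval -1.34 to 0.03) to 0.34 (Itga10, 95% interval -0.41 to 1.10). Itga11 and Itga5, a collagen-binding and the classical fibronectin-binding alpha subunit, had the highest levels among them, 14.6 and 11.6 CPM over the 8 libraries. Of the genes that did not pass, Itgal, Itgax and Itgb2, subunits of leukocyte integrins, had 49, 4 and 37 reads over the 8 libraries. Itgam and Itgb2l were listed at 0, and less than 1% of the body of either is free of other genes, so that the 0 is not read as absence.

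**Figure D3:**
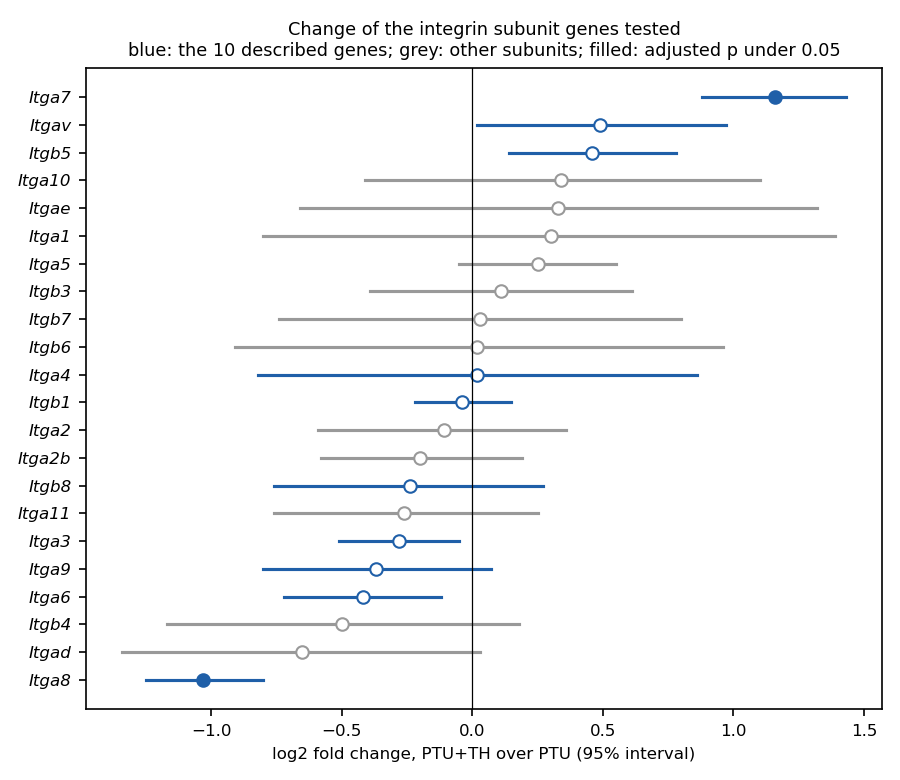
Log2 fold change (PTU+TH over PTU) with its 95% interval for the 22 integrin subunit genes tested, the 10 members in blue and the 12 other subunits in grey, with filled points for genes called at an adjusted p under 0.05. Itga7 at 1.16 and Itga8 at -1.03 are the ends of the range.

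Levels were compared between genes per length. All 1265 protein-coding genes that lie wholly inside another gene were listed at 0 in the 8 libraries, so counting took the whole body of a gene and dropped reads in shared parts. CPM were therefore divided by the kb of gene body that no other gene shares. On this scale Itga3 and Itgb1 were highest, at 1.57 ± 0.229 and 1.43 ± 0.0902 CPM per kb (SD, n = 8). Their order is uncertain, since Itga3 was the higher in 6 of 8 libraries. Itgb1 was above Itga7 in 8 of 8 libraries without overlap, and the order went on with Itga7, Itga9, Itga8, Itga6, Itgb8, Itgav, Itgb5 and Itga4, the last at 0.0368 ± 0.015 CPM per kb. Itga7 was above Itga9 in 7 of 8 libraries, Itgav above Itgb5 in 8 and Itgb5 above Itga4 in 8, although the ranges over the libraries overlapped. The 4 pairs of neighbours between Itga9 and Itgav kept their order in only 5 or 6 of 8 libraries. This order is that of the mean over both groups. Within the groups, Itga8 was the member with rank 4 in PTU (0.268 CPM per kb) and rank 8 in PTU+TH (0.132), and Itgav had rank 8 in PTU (0.115) and rank 5 in PTU+TH (0.162). Per kb of exons Itga8 had rank 4 in both groups.

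Itga8 went from 0.268 ± 0.0322 to 0.132 ± 0.00516 CPM per kb, and Itga7 from 0.335 ± 0.0314 to 0.747 ± 0.0341 CPM per kb of body free of other genes (SD, n = 4 each). Of the summed level per kb of the 7 alpha members, Itga7 made up 11.4% ± 1.07 in PTU and 26.3% ± 0.783 in PTU+TH, and Itga8 9.11% ± 0.353 and 4.64% ± 0.414 (SD, n = 4 each). Itga3 had the largest share, 58.7% ± 1.54 in PTU and 49.8% ± 2.41 in PTU+TH. Order and shares depend on the length used. Per kb of exons Itga7 was below Itga8 in both groups, at 1.01 against 7.03 CPM per kb in PTU and at 2.25 against 3.45 in PTU+TH, and Itgb1 was the first member, at 16.6 CPM per kb. On that scale Itga7 made up 3.41% ± 0.509 of the alpha sum in PTU and 9.55% ± 0.309 in PTU+TH, Itga8 23.6% ± 1.36 and 14.7% ± 1.04, and Itga3 32.8% ± 2.23 and 34.0% ± 2.35 (SD, n = 4 each). The share of Itga7 was larger and that of Itga8 smaller in PTU+TH on both scales. Since Itga7 is part of the sum, its own level moves the other shares: without it, Itga3 made up 66.3% ± 2.11 of the other 6 alpha members per kb of gene body in PTU and 67.5% ± 3.32 in PTU+TH (SD, n = 4 each).

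**Figure D4:**
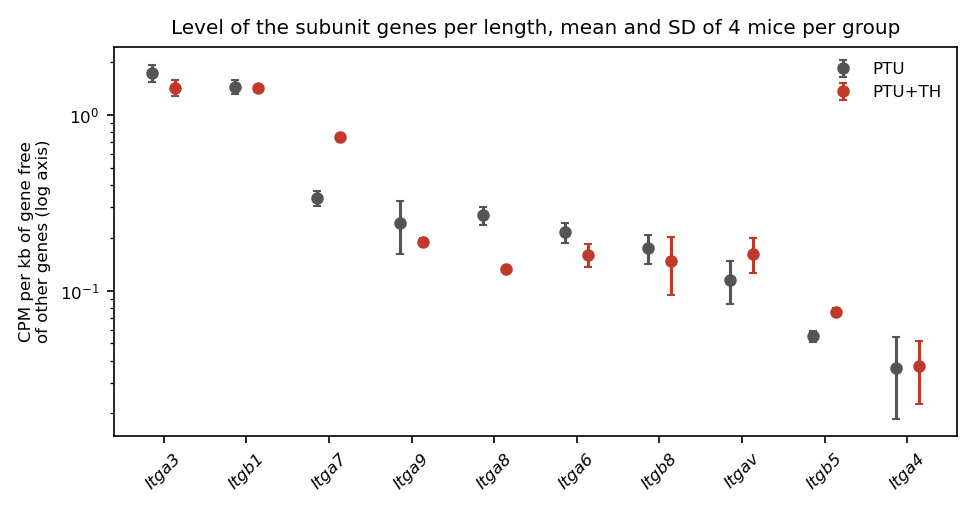
Level of the 10 members in CPM per kb of gene body free of other genes (log axis), as mean and SD of the 4 PTU (grey) and 4 PTU+TH (red) mice, in the order of the mean over all 8. Itga3 and Itgb1 lie above 1 CPM per kb in both groups, and Itga7 and Itga8 change in opposite directions.

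Genes of the integrin pathway outside the family were read from 4 lists of ligands, adaptors and kinases. The lists were made with earlier results of these data known, so calls and counts within them are a description. Beside their counts stand the shares over all genes given above, 2.12% called by edgeR, 1.49% as higher, and 3.88% called by DESeq2. A single call in a list of 11 or 36 tested genes does not set the list apart from these shares. An unadjusted p under 0.05, found for 12.8% of all genes, was found for 4 of 11 laminin chains, 10 of 36 other ligands, 5 of 33 activators and adaptors, and 2 of 29 kinases and partners. Of the 11 laminin chain genes, all tested, 1 was called higher and 0 lower, with a median log2 fold change of -0.17. That gene was Lama3, the alpha chain of laminins bound by receptors with Itga3 or Itga6 products. PTU mice 9 to 12 had 19.0, 23.8, 28.8 and 30 CPM, and PTU+TH mice 13 to 16 had 61.0, 56.3, 52.0 and 64.9 CPM, with no overlap. Lama3 rose 2.31-fold, with means of 25.4 ± 5.06 and 58.5 ± 5.60 CPM (SD, n = 4 each) and a log2 fold change of 1.21 ± 0.14 (SE). The adjusted p of edgeR was 0.000409. Among the other chains, Lama4, the highest in CPM over all 8 libraries, had a log2 fold change of 0.36 (edgeR adjusted p = 0.12). Lamb1 had one of -0.37 (edgeR adjusted p = 0.0736), and was called by DESeq2 and with the covariate of mouse sets (adjusted p = 0.0317 and 0.0465).

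Of the 37 other ligand genes, which cover matrix proteins, cell surface ligands and TGF-beta with its carriers, 36 were tested, 1 was called higher and 0 lower, with a median log2 fold change of -0.05. That gene was Npnt. It had 18.8, 9.03, 9.70 and 8.92 CPM in PTU mice 9 to 12 and 40.3, 42.7, 41.6 and 47.2 CPM in PTU+TH mice 13 to 16. Mouse 9 stood apart from the other PTU mice but was still below every PTU+TH mouse. The means were 11.6 ± 4.78 and 42.9 ± 2.98 CPM (SD, n = 4 each). Npnt rose by a log2 fold change of 1.88 ± 0.22 (SE), with an edgeR adjusted p of 0.000895, and without mouse 9 the log2 fold change was 2.22. The gene for this ligand was thus 3.69-fold higher in the same mice in which the gene for its receptor subunit, Itga8, was 2.04-fold lower. Thbs2 and L1cam, with log2 fold changes of 0.80 and -0.44, missed the threshold (edgeR adjusted p = 0.0559 and 0.0522) and were called by DESeq2 and under some other alternatives. Reln, the reelin gene, had the highest level of the list, 948 CPM over the 8 libraries, and missed the threshold widely (log2 fold change -0.22, 95% interval -0.54 to 0.09, edgeR adjusted p = 0.605).

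**Figure D5:**
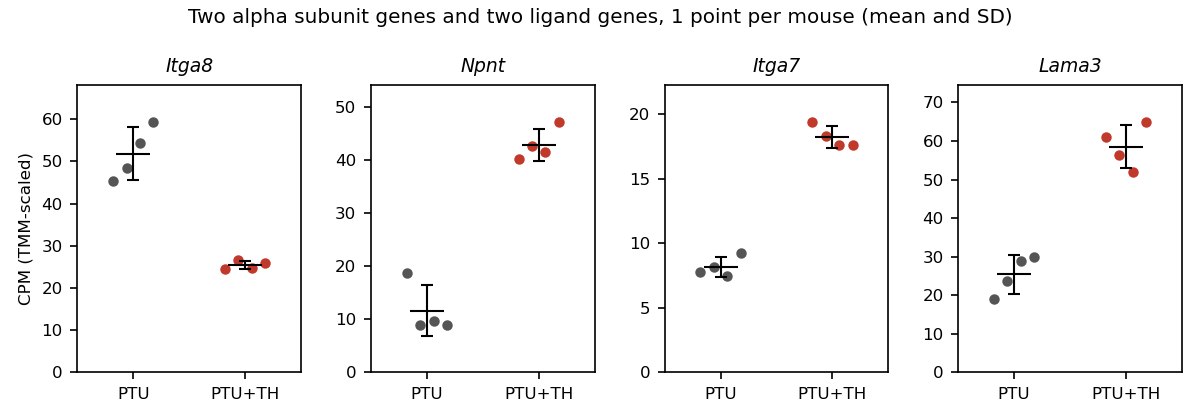
Level in CPM (vertical axes from 0) of the receptor genes Itga8 and Itga7 and of the ligand genes Npnt and Lama3 in each mouse, with mean and SD of the 4 PTU (grey) and 4 PTU+TH (red) mice. In each of the 4 genes the groups do not overlap, and Itga8 is the one that is lower in PTU+TH.

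Inside the cell, integrins are switched on by talins and kindlins, tied to actin by adaptors, and signal through focal adhesion kinase and SRC family kinases. Of 36 genes for activators and adaptors, 33 were tested and 0 were called by edgeR or limma voom, with 5 at an unadjusted p under 0.05 as given above. DESeq2 called 4 of them, Tns1, Flna, Apbb1ip and Cd9, where it called 3.88% of all genes. Dab1, the adaptor of reelin receptors, had the highest level, 1133 CPM over the 8 libraries (log2 fold change 0.04, 95% interval -0.43 to 0.52). Of the 29 genes for kinases and their partners, all tested, 0 were called by edgeR, DESeq2 or limma voom, and 2 had an unadjusted p under 0.05. Ptk2, the gene for focal adhesion kinase, was at 278 CPM in each group, with a 95% interval of the log2 fold change of -0.24 to 0.24. The median log2 fold changes of these 2 lists were 0.03 and -0.01, beside -0.01 over all genes.

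Markers of other cell types were read beside these values. Lists for excitatory neurons, astrocytes, oligodendrocytes, their precursors, microglia, endothelium and mural cells or fibroblasts held 5 to 10 tested genes each. In them 0 genes were called by edgeR, DESeq2 or limma voom. An unadjusted p under 0.05 was found for 2, 1 in the oligodendrocyte and 1 in the microglia list. Over all genes, edgeR called 2.12% and DESeq2 3.88%, and 12.8% had such an unadjusted p. In lists this short, 0 calls do not differ clearly from the shares called. The summed levels overlapped between the groups in each of these lists, with 54.2 to 75.0 CPM in PTU and 63.2 to 85.5 CPM in PTU+TH for microglia and 90.4 to 109 and 85.9 to 178 CPM for oligodendrocytes. The markers Gfap, P2ry12, C1ql1 and Gpr17 were listed at 0, and all 4 are covered by other genes. The median log2 fold change was 0.63 for the oligodendrocyte list (6 of 8 tested genes above 0), 0.47 for microglia (7 of 8) and 0.18 for astrocytes (6 of 8), beside -0.01 over all genes, and between -0.05 and 0.12 for the other 4 lists. Among markers of GABAergic classes, edgeR called 1 gene in each list, beside 2.12% of all genes: Syt2 of 8 tested PV markers and Gabrd of 8 LAMP5 markers were higher, and Calb1 of 9 SST markers and Htr3a of 8 VIP markers lower. The VIP list had a median log2 fold change of -0.28, with 7 of 8 genes below 0. An unadjusted p under 0.05 was found for 3 of 8 VIP, 3 of 8 LAMP5, 2 of 8 PV and 2 of 9 SST markers, and for 12.8% of all genes. The medians of the PV, LAMP5 and SST lists were -0.01, -0.03 and -0.09, with 4 genes above 0 in each. DESeq2 also called the LAMP5 marker Ndnf (edgeR log2 fold change -0.75), opposite to Gabrd. The part of glia or of a shift between classes in the values of Itga7 and Itga8 was not tested.

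The genes whose levels followed Itga7 and Itga8 most closely over the 8 libraries were taken from 11467 others with a mean of at least 5 CPM, by Pearson's r of log2 CPM. For Itga7 they were Shisa8 (r = 0.995), Gls2 (0.993), Hapln4 (0.992), Arhgef37 (0.990) and Col9a2 (0.990), all called higher. Those of Itga8 were Ptprz1 (0.981), Baiap3 (0.978), Slit1 (0.977), Map3k9 (0.977) and Slc37a1 (0.973), all called lower. These values mostly repeat the difference between the groups. With the group means removed, r ranged from 0.49 (Arhgef37) to 0.89 (Hapln4) for the first 5 and from 0.58 (Ptprz1) to 0.81 (Map3k9) for the others, over the same 8 libraries.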

How the data were processed

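RNA of sorted nuclei from individual cortices was measured in 8 libraries, 1 per mouse, made with SMART-Seq cDNA and Nextera XT kits and read single end, per the labels' protocols. Each deposited file gives, without a header, the count of reads for every gene symbol, not normalized. Per the submitters' processing notes, Bowtie2 2.5.3 and build mm10 (GRCm38) were used. The counting program, the annotation, the use of strand and the treatment of introns are not given in the sources used here. All 55341 symbols are in GENCODE M21, which gave positions and lengths, and 0 rows name no gene. Groups came from the labels, and depth was 21762810 to 29084071 counts per library.

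Counts were tested with edgeR 4.0.16 (R 4.3.3): filterByExpr, TMM scaling, the robust quasi-likelihood test with group as the only term, and Benjamini-Hochberg adjustment over 17355 genes, two-sided, with calls at an adjusted p under 0.05. The SE is the log2 fold change divided by the root of the test's F. CPM were computed from the deposited counts after TMM. Pairs of libraries within a group differed by more than sampling noise (chi-square per degree of freedom at least 8.87). In PTU this value was 20.16 and 9.54 for the pairs within the mouse sets and 32.36 to 79.78 across them. In PTU+TH it was 8.87 and 11.35 within the sets and 17.72 to 27.13 across them. The labels do not say whether mice shared a litter, and p-values weigh the group difference against the spread of these 8 mice within their groups. The fit was tested on simulated data with 200 changed genes. It called 20% of them at a log2 change of 0.58, and 69% at one of 1, with 12 false calls in the latter case. A gene not called is therefore not shown to be unchanged.

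The members and gene lists were chosen with earlier results of these data known. Named were all members, the other subunits that passed the filter, called or most abundant list members, and the 5 genes most like Itga7 and Itga8 (after adding 0.5 to CPM). An item that this rule would name is not reported here. Genes named beyond this rule, such as Lamb1, Thbs2, L1cam, Tns1, Flna, Apbb1ip, Cd9 and Ptk2, were picked after their values were seen. Alternatives were RLE, upper quartile and library-total scaling, DESeq2 1.42.0, limma 3.58.1 (voom), no filter, at least 10 counts in every library, 3 covariates, leaving out each mouse, and, added after seeing the data, leaving out mice 15 and 16.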

Additional observations from a re-analysis of the deposited data

Results flagged for a closer look

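For the 22 integrin genes tested, Npnt and Lama3, each group of 4 mice (48 sets in all) was searched for a lone high or low mouse. The search found 2, where chance marks about 5% of sets, or 2.4. Npnt in PTU mouse 9 was at 18.8 CPM, from 515 reads, against 8.92 to 9.70 CPM in the other PTU mice, a gap of 0.921 of the range. Mouse 9 also had the highest VIP class marker sum of the 8 libraries, 674 CPM, and the part of that in the Npnt value was not tested. Itga5 had 11.8 CPM in PTU+TH mouse 16 and 12.8 to 13.0 CPM in mice 13 to 15, a gap of 0.846 of a narrow range.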

How the results depend on the processing

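Npnt and Lama3 were called higher under all 19 alternatives, with log2 fold changes from 1.77 to 2.22 and from 1.09 to 1.30 and adjusted p-values of at most 0.0274 and 0.0226. Their lists were made with earlier results of these data known, so these values describe the libraries and are not independent support. Over the same alternatives the log2 fold change of Itga7 ranged from 1.12 to 1.22 and that of Itga8 from -1.08 to -0.96, values that describe the libraries by which both genes were chosen. No integrin gene beside these 2 was called under any of the 19. The log2 fold change of Itga4 turned negative with library totals only (-0.01), with the endothelial covariate (-0.03) and in 4 fits without 1 mouse, and ranged from -0.24 to 0.34 over the 8 such fits. That of Itgb1 lay between -0.10 (without mouse 11) and 0.00 (without mouse 10) over them. The value of Itga9, -0.37, was -0.19 without mouse 11. That of Itgb8, -0.24, was -0.12, -0.08 and -0.11 without mouse 9, 14 or 16 and -0.41 and -0.38 without mouse 13 or 15. Against 368 called genes (70.1% higher), DESeq2 called 722, the covariate of mouse sets 642, the Y-linked covariate 129 (82.2% higher), and the fit without mice 15 and 16 58 (89.7% higher). Leaving out single mice gave between 182 genes (without mouse 15) and 499 (without mouse 9), and the count fell by over 1.5 times also without mouse 12 (233), 13 (238), 14 (227) or 16 (209). The fits without mice have fewer samples. Why the tool and the covariates moved the count was not tested. The median log2 fold change over all genes shifted by -0.021 with library totals and by less with other scalings. Per kb of exons in place of gene body, ranks of members by mean level over both groups changed, with Itga7 moving from 3 to 7 and Itgb5 from 9 to 5. No paired analysis was possible because no number of a PTU mouse recurs in PTU+TH. Fewer than 120 reads per library limit Itga4.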
